A study of Mus musculus with 2 samples.

Results

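Tumour-like cells with the strongest interferon-response transcripts were compared with the other tumour-like cells of mouse brains bearing G422 glioma. These interferon-response cells were 511 of 5103 tumour-like cells, 140 of 1389 in the library of long-term survivors (LTS) and 371 of 3714 in the control library. A barcode counted as tumour-like with at least 10000 UMIs (unique molecular identifiers, 1 per captured transcript), at most 15% mitochondrially encoded UMIs, at most 1 UMI of Ptprc, at most 10 of C1qa, C1qb and C1qc together, at most 2 of Cldn5, Flt1 and Pecam1 together, and at least 20 of Vim. These limits were set against immune cells, microglia and endothelial cells. The interferon score of a cell was the mean of ln(1 + UMIs per 10000) over Ifit1, Ifit3, Isg15, Ifi44, Gbp2, Gbp3, Igtp, Usp18 and Oasl2, and the top 10% of the pooled tumour-like cells were taken. The cells were thus selected on the measured values of these 9 genes, so differences from the other tumour-like cells are given as a description and carry no test.

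Both groups were Kunming mice with orthotopic G422 tumours, labelled G422TN in the design text and G422-GBM as the cell line, a mouse glioma grown by injecting cultured cells into the brain. LTS mice had lived beyond 100 days after combined therapy, received the same cells in the contralateral side of the brain, and again lived beyond 100 days. Control mice were untreated, and their tissue was taken on day 7 after inoculation. Day 7 is also given for the LTS tissue, without saying from which inoculation it counts. The agents of the therapy and how many animals went into a library are not stated in the labels. Tissue was digested and layered on Percoll, and the interphase between 70% and 37%, which the protocol describes as holding immune cells, was loaded for 3' version 3 droplet sequencing. Each group had 1 library, so differences between LTS and control have no replicate behind them, and 95% intervals cover counting error only.

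Interferons are cytokines that alert cells to virus or to foreign and misplaced nucleic acid. Type I interferons such as interferon beta act through the kinases Jak1 and Tyk2 on a transcription factor complex that holds IRF9 and binds the interferon-stimulated response element (ISRE) and switches on genes such as the Ifit family, Isg15 and Oasl2. Interferon gamma, made mainly by T and natural killer cells, acts through Jak1 and Jak2 on factors that bind the gamma-activated site (GAS) and, with IRF1, induce guanylate-binding proteins, immunity-related GTPases and antigen presentation genes. The gene sets overlap, and tumour cells can respond to both.

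Promoter sequences are shown for 4 genes of the score and for Cxcl10, the gene with the highest log2 ratio outside it among those of at least 50 CPM (CPM, defined below), because each holds an ISRE-like motif, GAAA and GAAA with any 2 bases between them. The promoters came from RefSeq on GRCm38.p6, the build also called mm10, and ran from 250 bases before to 50 bases after the annotated start. They were Ifit1 at chr19:34640639-34640938 on the plus strand, Isg15 at chr4:156200769-156201068 on the minus strand, Gbp2 at chr3:142620413-142620712 on the plus strand, Igtp at chr11:58199306-58199605 on the plus strand and Cxcl10 at chr5:92348840-92349139 on the minus strand. Each is printed in the direction of the gene, and capitals mark the motif or, where it lies on the other strand, its reverse complement.
Ifit1: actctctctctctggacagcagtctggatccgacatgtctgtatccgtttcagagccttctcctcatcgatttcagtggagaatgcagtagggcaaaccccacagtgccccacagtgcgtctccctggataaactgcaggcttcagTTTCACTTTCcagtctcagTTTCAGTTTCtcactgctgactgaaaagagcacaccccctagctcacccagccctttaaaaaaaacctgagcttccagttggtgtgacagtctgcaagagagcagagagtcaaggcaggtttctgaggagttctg
Isg15: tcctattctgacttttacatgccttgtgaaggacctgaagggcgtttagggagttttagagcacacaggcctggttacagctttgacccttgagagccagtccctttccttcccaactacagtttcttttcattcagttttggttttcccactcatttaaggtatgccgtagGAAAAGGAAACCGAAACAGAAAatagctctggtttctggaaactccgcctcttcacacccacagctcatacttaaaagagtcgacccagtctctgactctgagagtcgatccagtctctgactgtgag
Gbp2: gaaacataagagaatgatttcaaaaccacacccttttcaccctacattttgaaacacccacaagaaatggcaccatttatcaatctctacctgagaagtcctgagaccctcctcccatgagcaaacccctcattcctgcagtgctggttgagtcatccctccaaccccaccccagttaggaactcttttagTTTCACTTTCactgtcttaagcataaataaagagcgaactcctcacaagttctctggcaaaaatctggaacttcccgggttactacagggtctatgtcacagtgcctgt
Igtp: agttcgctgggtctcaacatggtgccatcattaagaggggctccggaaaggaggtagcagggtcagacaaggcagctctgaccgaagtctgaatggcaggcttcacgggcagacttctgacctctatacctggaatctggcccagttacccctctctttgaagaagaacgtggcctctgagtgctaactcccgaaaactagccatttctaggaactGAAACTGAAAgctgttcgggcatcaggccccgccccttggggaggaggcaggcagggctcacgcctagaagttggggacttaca
Cxcl10: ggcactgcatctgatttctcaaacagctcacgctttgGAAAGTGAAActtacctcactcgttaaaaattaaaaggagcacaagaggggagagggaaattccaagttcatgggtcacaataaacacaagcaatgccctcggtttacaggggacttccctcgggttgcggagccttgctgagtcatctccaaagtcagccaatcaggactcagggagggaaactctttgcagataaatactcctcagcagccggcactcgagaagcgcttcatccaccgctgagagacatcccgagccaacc
Ifit1 held the motif at 104 to 95 and at 85 to 76 bases before the start, both on the other strand. Isg15 held 3 overlapping matches between 78 and 57 bases before the start. Gbp2 held 1 at 59 to 50, Igtp 1 at 34 to 25 and Cxcl10 1 at 213 to 204 bases before the start. Of the 9 score genes 8 had a promoter in the table, and 6 of these held the motif on either strand (Gbp2, Gbp3, Ifit1, Ifit3, Igtp and Isg15). Over all genes of the table the share was 3.993% of 27025 genes. The GAS-like motif TTCNNNGAA, found in 9.554% of all genes, was in the promoter of Igtp among the score genes. Matches are letters in a window and not shown binding sites.

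The libraries held 149413534 UMIs (LTS) and 165796852 UMIs (control). Median UMIs were 35271.5 in interferon-response cells and 37464 in other tumour-like cells of LTS, and 20073 in interferon-response cells and 19933 in other tumour-like cells of control. The limits on contaminating UMIs were read at these unequal depths, and the endothelial limit alone took the LTS barcodes to 1394, against 2439 before it, and the control barcodes to 3720, against 4872 before it. The libraries shared 1 barcode among tumour-like cells and 0 among interferon-response cells. Doublets were not called.

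The tumour-like label rests on the limits above and on transcripts they did not use. Ddx3y, Uty, Eif2s3y and Kdm5d, genes of the Y chromosome, summed to 1.38 CPM (counts of a gene scaled to a fixed total per class, in parts per 1e6) in interferon-response cells and 0.868 CPM in other tumour-like cells of LTS. In barcodes with Ptprc and at least 2 Cd3 UMIs they reached 139.6 CPM, and in barcodes with over 10 C1q UMIs 89.0 CPM. The same sums in the control library were 0.507 CPM in interferon-response cells, 0.904 CPM in other tumour-like cells, 92.4 CPM with Cd3 and 73.1 CPM with C1q. Of 14 glial genes, Sox2, Nes, Pdgfra and Cspg4 reached 20 CPM, and the list summed to 234 CPM in interferon-response cells and 261 CPM in other tumour-like cells of LTS, and to 243 CPM in interferon-response cells and 274 CPM in other tumour-like cells of control. Of its members in interferon-response cells, Olig2 was at 0 CPM in both libraries and Gfap at 0.197 CPM (LTS) and 1.52 CPM (control). Vim stood at 3962 CPM (LTS) and 4221 CPM (control), but the limits asked for Vim, so its level is no separate sign of identity.

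Markers of lymphocytes, neutrophils and dendritic cells were low in interferon-response cells, while those of fibroblasts and astrocytes were not. None of the T cell, natural killer, B cell, neutrophil or dendritic markers reached 20 CPM, and their list sums ran from 1.18 to 5.13 CPM in LTS and from 0.634 to 6.08 CPM in control. In other tumour-like cells these sums ran from 0.808 to 3.31 CPM in LTS and from 0.791 to 4.09 CPM in control. Over single cells the median sum of 7 microglia markers not used by the limits was 57.9 CPM in interferon-response cells and 52.7 CPM in other tumour-like cells of LTS, and 70.6 CPM in both classes of control. The 3 endothelial markers not used by the limits, Cdh5, Kdr and Ly6c1, summed to 9.08 CPM in interferon-response cells and 3.78 CPM in other tumour-like cells of LTS, and to 14.5 CPM in interferon-response cells and 5.41 CPM in other tumour-like cells of control. Fibroblast markers summed to 867 CPM in interferon-response cells and 551 CPM in other tumour-like cells of LTS, and to 684 CPM in interferon-response cells and 534 CPM in other tumour-like cells of control, with Dcn, Lum and Pdgfra measured. Astrocyte markers, of which Gja1 alone reached 20 CPM, summed to 278 CPM in interferon-response cells and 311 CPM in other tumour-like cells of LTS, and to 233 CPM in interferon-response cells and 263 CPM in other tumour-like cells of control. Monocyte and macrophage markers, of which Apoe alone reached 20 CPM, summed to 84.1 CPM in interferon-response cells and 76.5 CPM in other tumour-like cells of LTS, and to 174.8 CPM in interferon-response cells and 155 CPM in other tumour-like cells of control. Oligodendrocyte markers summed to 20.3 CPM in interferon-response cells and 12.6 CPM in other tumour-like cells of LTS, and 50.7% of the first class and 36.3% of the second had a UMI of them. Their control sums were 19.8 CPM in interferon-response cells and 15.2 CPM in other tumour-like cells. The part of all these transcripts in the differences below was not tested.

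The score had a long upper tail and no gap at its limit. In interferon-response cells the median score was 0.757 in LTS (range 0.484 to 1.733) and 0.762 in control (0.483 to 2.513). In other tumour-like cells it was 0.0466 in LTS and 0.0638 in control, and 1117 of the 5103 cells (21.9%) had none of the 9 genes. The limit lay at 0.4828. The 5 cells just inside had scores of 0.483 to 0.4864, and the 5 just outside 0.475 to 0.4823. Within 0.05 of the limit lay 74 interferon-response cells and 70 other tumour-like cells, so the class is the end of a range and not a separate group of cells.

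**Figure D1:**
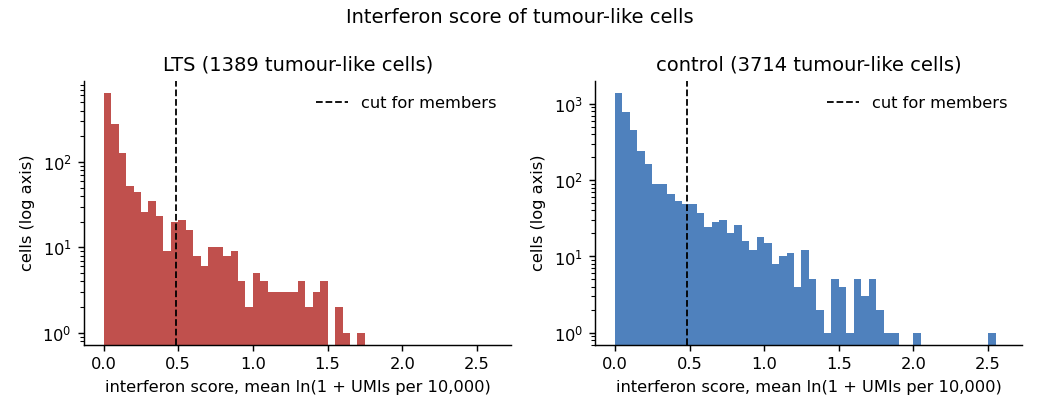
Histograms of the interferon score (mean ln(1 + UMIs per 10000) over 9 genes) of tumour-like cells, LTS left and control right, with numbers of cells on a log axis. The dashed line marks the limit of 0.4828, and cells to its right (140 in LTS, 371 in control) are the interferon-response cells. Neither histogram has a gap at the line.

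The share of tumour-like cells in this class was near equal in the libraries. It was 10.08% of LTS cells (95% exact binomial interval 8.55 to 11.8) and 9.99% in control (9.04 to 10.999). After thinning every cell to 10000 UMIs it was 10.4% in LTS (8.81 to 12.1) and 10.9% in control (9.89 to 11.9), with 125 of 144 LTS cells and 347 of 404 control cells also chosen at full depth. The typical interferon-response cell had UMIs of 8 of the 9 score genes in both libraries. Other tumour-like cells had UMIs of a median of 2 genes in LTS and 1 gene in control. Summed over cells, the 9 genes reached 1619 CPM in LTS interferon-response cells and 93.8 CPM in other LTS tumour-like cells. In control they reached 1655 CPM in interferon-response cells and 121 CPM in other tumour-like cells. Barcodes of 1 to 100 UMIs, which mostly hold free RNA, had 333 CPM in LTS and 326 CPM in control, above the other tumour-like cells and below the interferon-response cells.

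The genes of the score, which chose the cells, ran from 10.8-fold to 53.6-fold higher in LTS interferon-response cells than in other LTS tumour-like cells, and from 7.79-fold to 32.5-fold in control. Ifit1 (ENSMUSG00000034459, chromosome 19 from 34640871 to 34650009), which binds viral RNA that lacks the host's cap modification, was at 248 CPM in interferon-response cells and 6.32 CPM in other tumour-like cells of LTS. In control it was at 259.7 CPM in interferon-response cells and 8.81 CPM in other tumour-like cells. Isg15, a ubiquitin-like protein joined to other proteins, was at 291 CPM in interferon-response cells and 22.1 CPM in other tumour-like cells of LTS, and at 309 CPM in interferon-response cells and 27.9 CPM in other tumour-like cells of control. Gbp2, a guanylate-binding protein that attacks vacuoles of intracellular microbes, was at 224 CPM in interferon-response cells and 20.7 CPM in other tumour-like cells of LTS. Its control levels were 181 CPM in interferon-response cells and 23.2 CPM in other tumour-like cells. The lowest fold of the 9 in both libraries was that of Gbp2 and the highest that of Ifit3, whose reads may be shared with its near copy Ifit3b.

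Across all genes, few differed by 2-fold or more, and nearly all of those were higher in the interferon-response cells. A gene was measured if it had at least 20 CPM in either class, and ratios below are log2 of CPM + 5, interferon-response over other tumour-like cells. In LTS, 109 of 6561 measured genes (1.66%) were at least 2-fold higher and 4 (0.061%) at least 2-fold lower. The control library had 93 of 6568 genes (1.42%) higher and 2 (0.0305%) lower. Of the 6403 genes measured in both libraries 87 (1.36%) were higher in both, which is 79.8% of the LTS set and 93.5% of the control set, and 2 (0.0312%) were lower in both, Hmox1 and Il11. Most of these genes passed the minimum only through the interferon-response class, where they had to be higher. Of 6250 LTS genes with 20 CPM in the other tumour-like cells 33 (0.528%) were at least 2-fold higher, and of 6306 control genes 28 (0.444%). Of the 87 genes 9 were the score genes, which chose the cells, and 60 were in interferon-related lists drawn up with earlier results known. Genes of these lists were 76.9% of the 78 genes without the score and 1.25% of the 6394 measured. With 20 CPM in the other tumour-like cells of both libraries they were 18 of 22 higher genes (81.8%) and 31 of 6161 measured (0.5%). The other 18 of the 87 were AA467197, AI607873, AW112010, Apod, Ccl2, Ccl5, Cd47, Clec2d, Cxcl10, Ddx60, Gbp2b, Il15ra, Lgals9, Mitd1, Mndal, Pla2g16, Trafd1 and Znfx1, named here after their values were seen. The median log2 ratio of all measured genes was 0.018 in LTS and 0.035 in control.

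Transcripts of the interferons themselves were nearly absent from the tumour-like cells. Ifng had 0 UMIs in interferon-response cells of either library. Of its 168 UMIs in the LTS library, 125 were in 442 barcodes with Ptprc and at least 2 Cd3 UMIs, and of its 27 in the control library, 8 were in 49 such barcodes. Ifnb1, interferon beta (chromosome 4 from 88522025 to 88522774), had 46 UMIs in the LTS library, of which 41 were in 1 interferon-response cell. That cell had 53573 UMIs, a score of 1.236, 161 UMIs of Cxcl10, 81 of Ccl5, 61 of Ccl2 and 1 of Ptprc. The control library had 20 Ifnb1 UMIs, of which 7 were in 4 interferon-response cells with scores of 0.868 to 1.368, and 1 was in 1 other tumour-like cell with a score of 0. Interferon-response cells thus held 41 of 41 Ifnb1 UMIs of LTS tumour-like cells and 7 of 8 of control tumour-like cells, from 5 cells in all.

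Receptor and kinase transcripts differed little between the classes. Ifnar1, a chain of the type I receptor, was at 31.2 CPM in interferon-response cells and 29.3 CPM in other tumour-like cells of LTS, and at 28.6 CPM in interferon-response cells and 28.3 CPM in other tumour-like cells of control. Ifngr1, the ligand-binding chain for interferon gamma, was at 31.6 CPM in interferon-response cells and 23.8 CPM in other tumour-like cells of LTS, and at 30.5 CPM in interferon-response cells and 23.1 CPM in other tumour-like cells of control. None of 5 measured receptor and kinase genes reached 2-fold in either library, with medians of 0.20 in LTS and 0.16 in control.

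Among interferon-related transcription factors, 7 of 11 measured genes in LTS and 6 of 11 in control were at least 2-fold higher in interferon-response cells. Their medians were 1.43 in LTS and 1.30 in control. Over the 5 with 20 CPM in the other tumour-like cells the medians were 0.76 in LTS, with 2 past 2-fold, and 0.59 in control, with 1. Irf7, which drives interferon genes once induced, was at 91.0 CPM in interferon-response cells and 9.31 CPM in other tumour-like cells of LTS (9.78-fold, 8.58 to 11.2). Its control level was 107 CPM in interferon-response cells and 13.4 CPM in other tumour-like cells (8.03-fold, 7.31 to 8.82). Irf3, which acts through activation of existing protein, had ratios of -0.04 in LTS and 0.05 in control. With the top 20% of cells as the class, the list medians were 0.81 in LTS and 0.59 in control.

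Sensors of nucleic acid differed from gene to gene. Ddx58, the RNA sensor RIG-I, was 5.79-fold higher in interferon-response cells of LTS (5.05 to 6.63) and 5.83-fold in control (5.24 to 6.49). Zbp1, a sensor of Z-form nucleic acid, was at 65.6 CPM in interferon-response cells and 6.08 CPM in other tumour-like cells of LTS, and at 65.3 CPM in interferon-response cells and 7.77 CPM in other tumour-like cells of control. Mb21d1, the DNA sensor cGAS, had ratios of 0.55 in LTS and 0.63 in control. Its partner Tmem173, which encodes STING, had ratios of 0.46 in LTS and 0.34 in control. In all 4 of 9 measured sensor genes passed 2-fold in LTS (median 0.98) and 4 of 8 in control (median 1.23), and none of the 4 with 20 CPM in the other tumour-like cells of either library did (medians 0.51 in LTS, 0.46 in control). The control median was 0.58 with the top 20% of cells, and also 0.58 in cells with no immune or endothelial UMI.

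Antiviral effectors made up the largest of the interferon lists. At least 2-fold higher were 28 of 34 measured genes in LTS (median 1.83) and 30 of 35 in control (median 1.87), but 21 of the 34 in LTS and 20 of the 35 in control were measured only in the interferon-response class. Of the genes with 20 CPM in the other tumour-like cells, 10 of 13 in LTS (median 1.70) and 12 of 15 in control (median 1.54) were at least 2-fold higher. Rsad2, the antiviral enzyme viperin, was at 46.8 CPM in interferon-response cells and 0.707 CPM in other tumour-like cells of LTS, with 237 UMIs in the first and 35 in the second class. The control library had 63.3 CPM in interferon-response cells and 1.47 CPM in other tumour-like cells. A single interferon-response cell held 22.4% of the Rsad2 UMIs of its class in LTS, and another 19.4% in control. Without that cell the Rsad2 ratio was 2.87 in place of 3.18 in LTS and 3.12 in place of 3.40 in control. Bst2, or tetherin, which holds virions at the cell surface, was already abundant elsewhere, at 1756 CPM in interferon-response cells and 410.0 CPM in other tumour-like cells of LTS. Its control levels were 1567 CPM in interferon-response cells and 429.5 CPM in other tumour-like cells. Ifitm3, which blocks viral entry, was 3.27-fold higher in LTS (3.195 to 3.34) and 2.83-fold in control (2.78 to 2.88). Of the enzymes that attach ISG15, the ligase Herc6 was 9.16-fold higher in LTS and 6.31-fold in control, and Uba7, the activating enzyme, 1.79-fold (1.46 to 2.18) in LTS and 1.74-fold (1.45 to 2.07) in control. Of Uba7, Ube2l6, Herc6 and Trim25, 3 of 4 measured passed 2-fold in LTS and 3 of 3 in control. The rest of that list, Parp family genes of ADP-ribosylation and the ubiquitin ligase Dtx3l, passed with 5 of 5 in each library. With 20 CPM in the other tumour-like cells the whole list had 2 genes in each library, both past 2-fold.

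The 14 highest genes outside the score, ranked by the smaller ratio of both libraries, were Cxcl10, Iigp1, Gbp7, Phf11d, Gbp2b, Parp14, Irf7, Ifi47, Zbp1, Rnf213, Rtp4, Trim30a, Apol9a and Irgm1. Their folds ran from 5.83 for Rnf213, a giant ubiquitin ligase, to 55.6 for Cxcl10 in LTS, and from 5.63 for Rnf213 to 29.1 for Cxcl10 in control. Of these 14 genes 10 had a promoter in the table, and 6 of the 10 held the ISRE-like motif printed above, which 3.993% of all genes held. Several are members of gene families with near-identical copies, among them Gbp2b, Gbp7 and Apol9a, so reads may be split between copies.

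**Figure D2:**
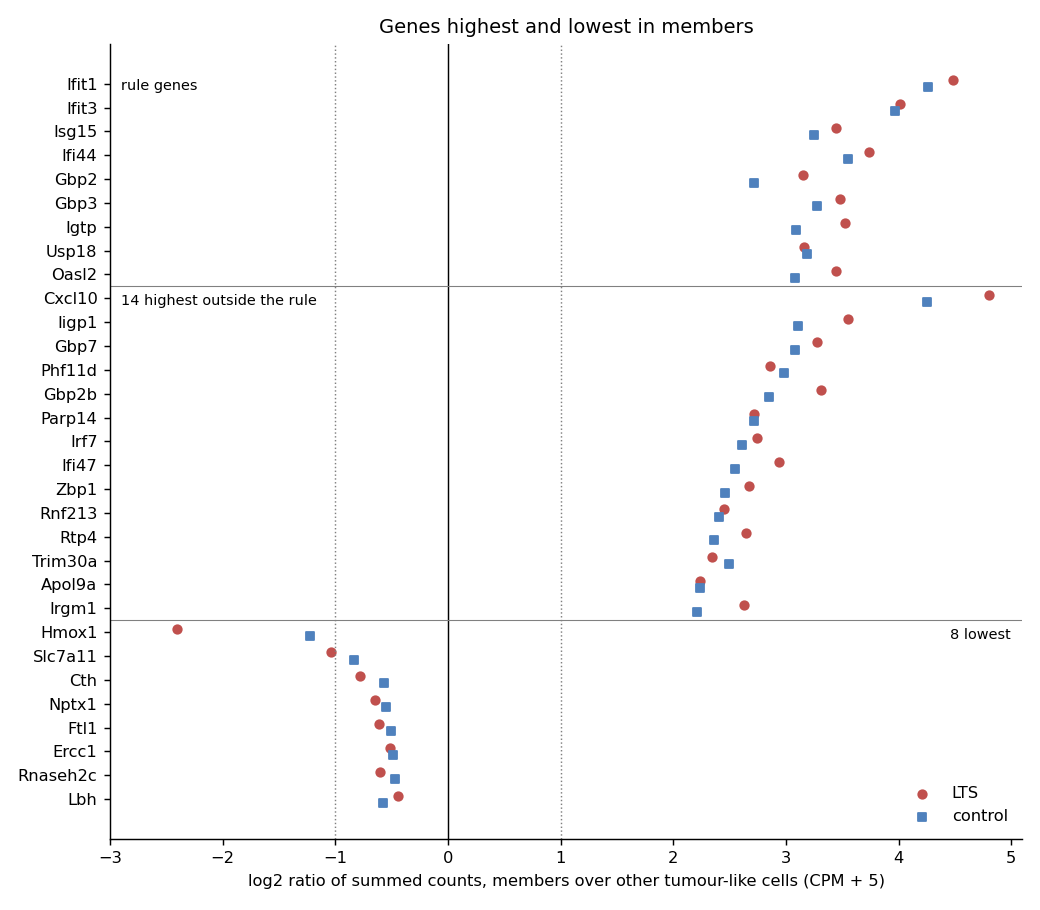
Log2 ratio of summed counts (CPM + 5), interferon-response over other tumour-like cells, for the 9 score genes, the 14 highest genes outside the score and the 8 lowest, with LTS as circles and control as squares. Dotted lines mark 2-fold in either direction. Cxcl10 had the highest ratio outside the score (4.80 in LTS, 4.25 in control), and Hmox1 the lowest (-2.41 in LTS, -1.23 in control).

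The interferon-induced GTPases, which disrupt vacuoles around microbes, were low in other tumour-like cells. With the score genes left out, 6 of 16 were measured in LTS (median 2.84) and 5 in control (median 2.54). All 6 of LTS and 4 of the 5 of control were measured only in the interferon-response class, so that they had to be higher there, and no count is drawn from them. Iigp1, an immunity-related GTPase, was at 127 CPM in interferon-response cells and 6.22 CPM in other tumour-like cells of LTS (20.4-fold, 17.7 to 23.4). Control values were 96.0 CPM in interferon-response cells and 6.71 CPM in other tumour-like cells (14.3-fold, 12.7 to 16.1). Irgm1, a regulator of the same family, was 7.64-fold higher in LTS (6.91 to 8.45) and 5.70-fold in control (5.2 to 6.25).

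Genes of MHC class I presentation, which display cell peptides to CD8 T cells, were higher as a group. At least 2-fold higher were 15 of 15 measured genes in LTS (median 1.51) and 11 of 15 in control (median 1.18), and of those with 20 CPM in the other tumour-like cells 8 of 8 in LTS (median 1.35) and 5 of 8 in control (median 1.11). Psmb9, a subunit of the immunoproteasome that cuts peptides, was at 95.8 CPM in interferon-response cells and 9.997 CPM in other tumour-like cells of LTS (9.58-fold, 8.44 to 10.9), and at 59.4 CPM in interferon-response cells and 11.8 CPM in other tumour-like cells of control (5.03-fold, 4.48 to 5.64). Tap1, part of the peptide transporter, was 8.74-fold higher in LTS (7.72 to 9.89) and 6.02-fold in control (5.41 to 6.69). H2-K1, a class I heavy chain, was at 519.9 CPM in interferon-response cells and 179.6 CPM in other tumour-like cells of LTS, and at 451 CPM in interferon-response cells and 183.5 CPM in other tumour-like cells of control. B2m, the invariant light chain, had ratios of 1.01 in LTS and 0.77 in control, the lowest of the list in both, and its LTS ratio was below 1 in 5 alternatives (0.92 to 0.98). Nlrc5, the class I transactivator, was at 9.28 CPM in interferon-response cells and 1.88 CPM in other tumour-like cells of LTS, and at 9.25 CPM in interferon-response cells and 2.08 CPM in other tumour-like cells of control.

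Class II genes were low in both classes. None of 12 reached 20 CPM in LTS and 1 did in control, and their sums were 36.9 CPM in interferon-response cells and 37.3 CPM in other tumour-like cells of LTS, and 68.4 CPM in interferon-response cells and 68.2 CPM in other tumour-like cells of control. Ciita, the class II transactivator, had 0 CPM in interferon-response cells of LTS and 0.127 CPM in those of control.

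Chemokines were led by Cxcl10, which draws cells bearing CXCR3 such as activated T cells. Cxcl10 (chromosome 5 from 92346638 to 92348889) was at 270.5 CPM in interferon-response cells and 4.87 CPM in other tumour-like cells of LTS (55.6-fold, 48.4 to 64.0). In control it was at 259.5 CPM in interferon-response cells and 8.91 CPM in other tumour-like cells (29.1-fold, 26.6 to 31.9). The cell with most Ifnb1 held 11.8% of the LTS Cxcl10 UMIs, and without it the ratio was 4.64 in place of 4.80. Ccl2, which attracts monocytes, was at 228 CPM in interferon-response cells and 46.5 CPM in other tumour-like cells of LTS, and at 257 CPM in interferon-response cells and 55.0 CPM in other tumour-like cells of control. In cells with no immune or endothelial UMI its ratio was 1.06 in LTS and 0.51 in control, against 2.18 in LTS and 2.13 in control with all cells. A single interferon-response cell held 17.4% of the Ccl2 UMIs of its class in LTS, and another 13.4% in control. Without that cell the Ccl2 ratio was 1.92 in LTS and 1.93 in control. Ccl5, which attracts T cells and monocytes, was 4.42-fold higher in LTS (3.99 to 4.89) and 5.94-fold in control (5.47 to 6.46). Its LTS ratio ran from 1.34 to 3.36 over the alternatives, against 1.94. In barcodes of 1 to 100 UMIs Cxcl10 stood at 77.2 CPM (LTS) and 78.5 CPM (control), between the classes, while Ccl5 stood at 212 CPM in LTS, above both classes there. Of 4 measured chemokines 3 passed 2-fold in each library, Cxcl10 among them, which was measured only in the interferon-response class.

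Cxcl10 followed the score in another way than H2-K1 did. In LTS it was at 3.02 CPM in the lowest 40% of pooled scores, 19.1 CPM from the 80th to the 90th percentile, 79.5 CPM up to the 95th and 475 CPM above it. The same 4 ranges in control held 6.21, 19.0, 42.8 and 474 CPM. H2-K1 was at 110 CPM in the lowest range of LTS and had 428 CPM already from the 80th to the 90th percentile, outside the interferon-response class, then 397 CPM up to the 95th and 651 CPM in the top range. Its control levels in these ranges were 124, 345, 436 and 466 CPM. Most of the Cxcl10 difference thus lay in the top 5% of cells, and most of the H2-K1 difference below the top 10%. B2m was at 390, 919, 914 and 1176 CPM in these ranges of LTS and 480, 840, 936 and 1042 CPM in those of control. For Tap1 and Psmb9 most of the difference lay within the top 10%. Tap1 held 4.70, 38.5, 72.7 and 122 CPM in LTS and 5.95, 31.9, 53.8 and 92.8 CPM in control. Psmb9 held 3.69, 38.0, 78.4 and 114 CPM in LTS and 6.57, 29.7, 52.8 and 66.0 CPM in control.

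**Figure D3:**
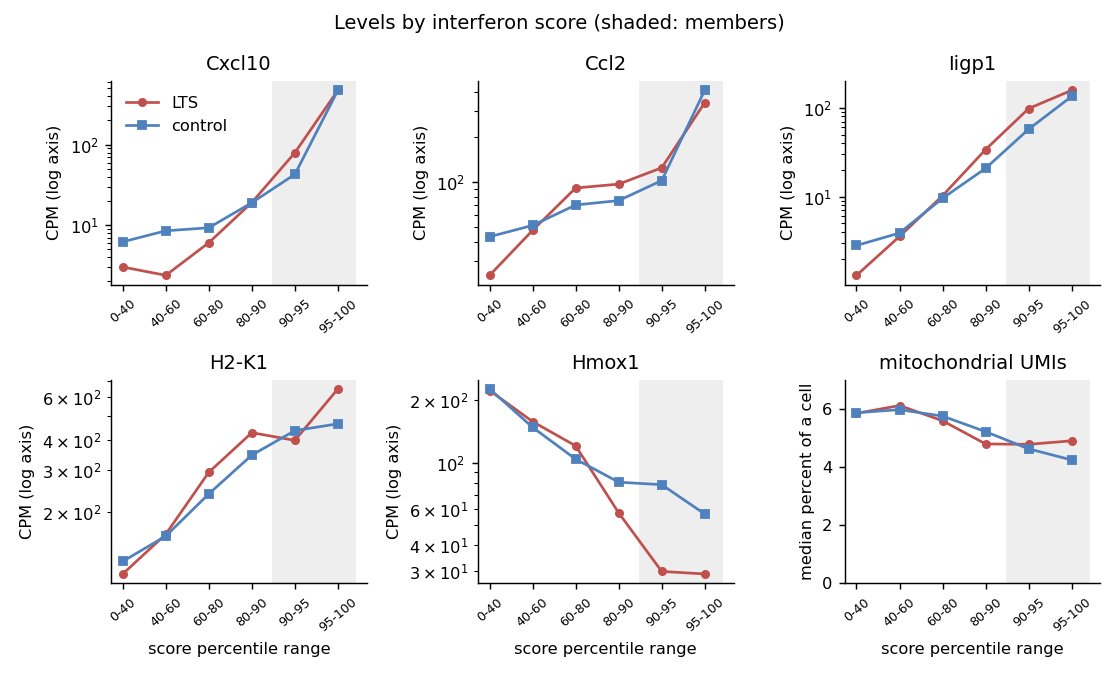
Levels of 5 genes (CPM of summed counts, log axes) and the median percentage of mitochondrially encoded UMIs over ranges of the pooled score percentile, with LTS as circles and control as squares and the interferon-response class shaded. Cxcl10 is below 10 CPM up to the 80th percentile and steep above it (475 CPM in LTS and 474 CPM in control in the top range), H2-K1 is higher in the top range than in the lowest, with a dip in LTS from the 90th to the 95th percentile (397 CPM, after 428 CPM), and Hmox1 declines (29.0 CPM in LTS and 56.5 CPM in control in the top range).

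Ligands of immune checkpoints split. Lgals9, the ligand galectin-9, was at 54.9 CPM in interferon-response cells and 9.33 CPM in other tumour-like cells of LTS (5.88-fold, 5.05 to 6.84), and at 62.1 CPM in interferon-response cells and 14.5 CPM in other tumour-like cells of control (4.28-fold, 3.84 to 4.77). Cd47, which tells phagocytes not to engulf the cell, was 2.11-fold higher in LTS (1.97 to 2.25) and 2.39-fold in control (2.27 to 2.52). Cd274, which encodes PD-L1, was below the measured level, at 12.05 CPM in interferon-response cells and 1.31 CPM in other tumour-like cells of LTS, from 61 UMIs in the first class and 65 in the second. In control it was at 12.7 CPM in interferon-response cells and 1.69 CPM in other tumour-like cells. Of 4 measured checkpoint ligands 2 passed 2-fold in each library, and of the 3 with 20 CPM in the other tumour-like cells 1 did.

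**Figure D4:**
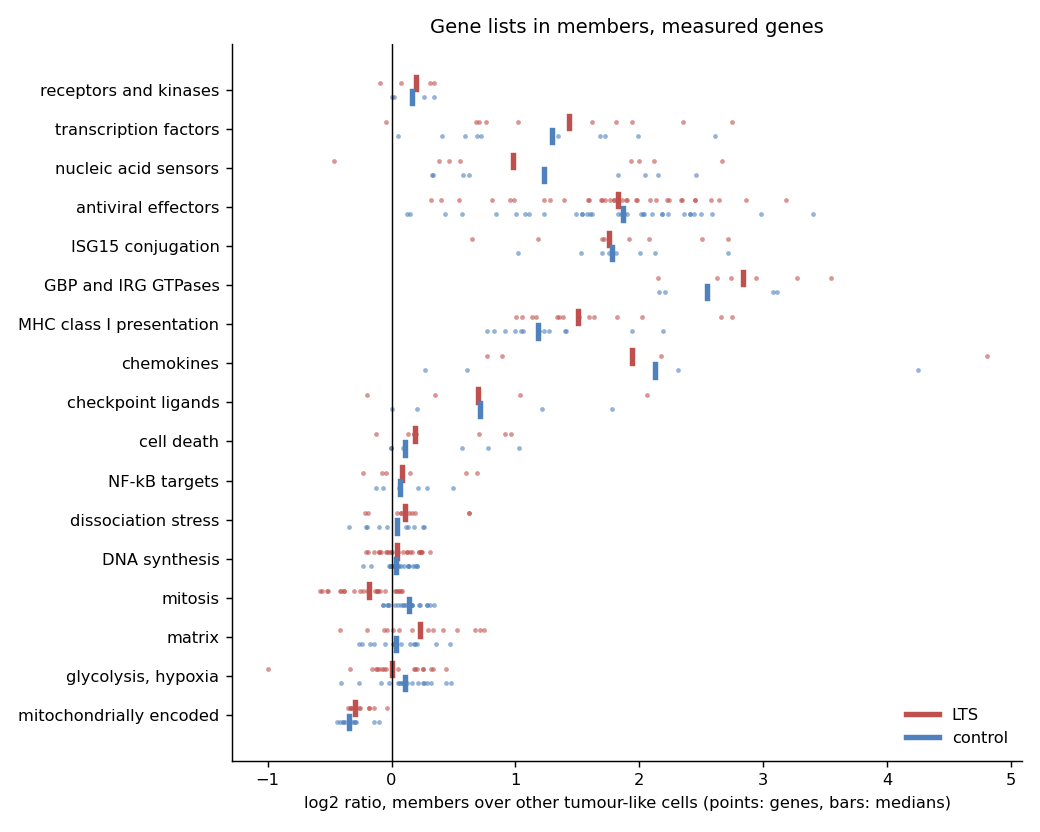
Log2 ratios (CPM + 5), interferon-response over other tumour-like cells, of the measured genes of 17 lists, with LTS above control in each row, points for genes and bars for list medians. The GTPase list has medians of 2.84 in LTS and 2.54 in control, over genes that were measured, all but 1 in control, only in the interferon-response class, and lists without interferon genes lie near 0. Mitochondrially encoded genes lie below 0 in both libraries.

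Lists without interferon genes stayed near 0. NF-kB targets had medians of 0.08 in LTS and 0.07 in control, p53 targets 0.03 in LTS and -0.03 in control, genes induced by tissue dissociation 0.11 in LTS and 0.04 in control, and DNA synthesis genes 0.05 in LTS and 0.04 in control, with no gene of these past 2-fold. The matrix list was at 0.23 in LTS and 0.04 in control. All 13 mitochondrially encoded genes were below 0 in both libraries, with medians of -0.29 in LTS and -0.34 in control. The median share of mitochondrially encoded UMIs per cell was 4.86% in interferon-response cells and 5.78% in other tumour-like cells of LTS, and 4.40% in interferon-response cells and 5.79% in other tumour-like cells of control. After thinning, interferon-response cells had a median of 3388 genes and other tumour-like cells one of 3297 in LTS, and in control interferon-response cells had 3463 and other tumour-like cells 3370.

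The lower genes were few. Hmox1 (ENSMUSG00000005413), which encodes heme oxygenase and is induced by oxidative stress, was at 29.4 CPM in interferon-response cells and 178 CPM in other tumour-like cells of LTS (0.166-fold, 0.140 to 0.195). In control it was at 67.3 CPM in interferon-response cells and 164 CPM in other tumour-like cells (0.409-fold, 0.375 to 0.447), and 1 cell held 15.4% of the 531 UMIs of the first class. Its ratio of -2.41 in LTS was -0.67, and that of -1.23 in control was -0.17, in the 18 LTS and 44 control interferon-response cells left when no cell may have an immune or endothelial UMI. Il11, a cytokine of the interleukin-6 family, had ratios of -1.51 in LTS and -1.26 in control, and -0.73 in control with the top 20% of cells as the class. Past 2-fold in LTS were also Slc7a11, the cystine importer, at -1.04 (control -0.84), and Areg, a ligand of the EGF receptor, at -1.15 (control -0.54). Slc7a11 was under 2-fold in 5 alternatives (-0.67 to -0.99), and Areg was at -0.28 without immune or endothelial UMIs.

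The 8 lowest genes with at least 50 CPM were Hmox1, Slc7a11, Cth, Nptx1, Ftl1, Ercc1, Rnaseh2c and Lbh. Ftl1, the ferritin light chain that stores iron, was at 1525 CPM in interferon-response cells and 2329 CPM in other tumour-like cells of LTS, and at 1433 CPM in interferon-response cells and 2041 CPM in other tumour-like cells of control. Cth, an enzyme of cysteine synthesis, had ratios of -0.78 in LTS and -0.57 in control. Hmox1, Slc7a11 and Ftl1 are known targets of the oxidative stress factor NRF2, and a list of 18 such targets was added after these values were seen. The 16 of them that were measured had medians of -0.25 in LTS, with 1 gene above 0, and -0.17 in control, with 0 above 0. Without Hmox1, Slc7a11 and Ftl1, which prompted the list, the medians of the 13 left were -0.16 in LTS, with 1 above 0, and -0.08 in control, with 0, and none passed 2-fold. Over all measured genes 3609 of 6561 in LTS and 3987 of 6568 in control were above 0.

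Among interferon-response cells, the Ifit group (Ifit1, Ifit3, Isg15, Ifi44, Usp18 and Oasl2) and the GTPase group (Gbp2, Gbp3 and Igtp) of the score were not always high together. Across all tumour-like cells the group scores had Pearson's r of 0.69 in 1389 LTS cells and 0.70 in 3714 control cells, which share library and depth, and 0.64 in LTS and 0.63 in control after thinning. Past the pooled top 10% on both groups were 77 of the 140 from LTS (55.0%, 46.4 to 63.4) and 225 of the 371 from control (60.6%, 55.5 to 65.7). On the Ifit group alone were 33 LTS cells (23.6%, 16.8 to 31.5) and 103 control cells (27.8%, 23.3 to 32.6). On the GTPase group alone were 30 LTS cells (21.4%, 14.9 to 29.2) and 43 control cells (11.6%, 8.52 to 15.3), and these intervals overlap narrowly. After thinning the GTPase-only shares were 18.1% in LTS and 13.6% in control. The score that chose these cells holds more Ifit-group than GTPase-group genes. Among all tumour-like cells the library gap was smaller, with 61 of 1389 in LTS and 148 of 3714 in control past the GTPase group alone. Past the Ifit group alone were 48 in LTS and 161 in control. Pooled, each side held 209 tumour-like cells, and 136 on the Ifit side and 73 on the GTPase side were interferon-response cells.

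**Figure D5:**
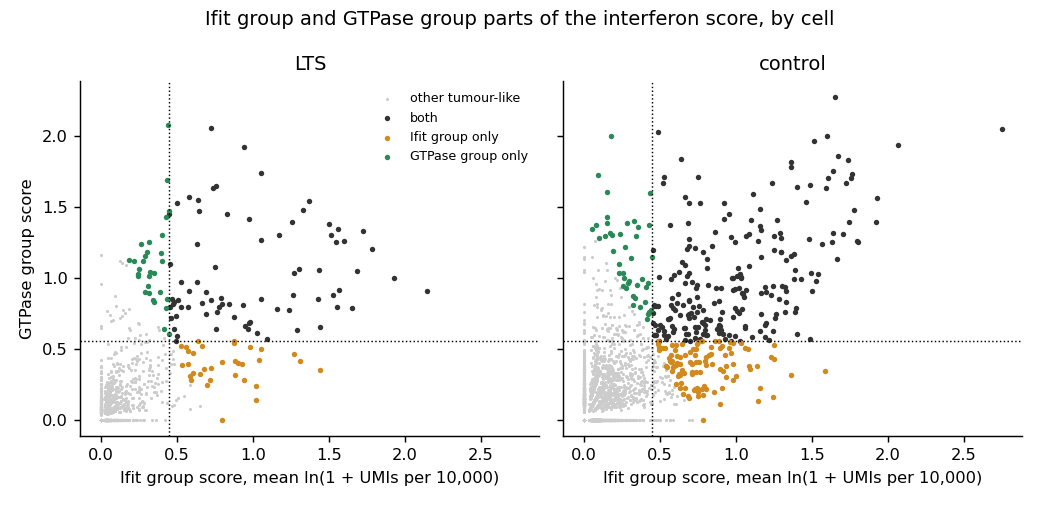
Score of the GTPase group against score of the Ifit group for every tumour-like cell (mean ln(1 + UMIs per 10000)), LTS left and control right, with dotted lines at the pooled top 10% of each (0.4483 for the Ifit group, 0.5546 for the GTPase group). Grey points are other tumour-like cells, and the colours mark interferon-response cells past both lines (77 in LTS, 225 in control), past the Ifit line only (33 in LTS, 103 in control) or past the GTPase line only (30 in LTS, 43 in control).

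Genes outside the score differed between these cells along the same division. Oasl1, a relative of the antiviral OAS enzymes, was at 52.99 CPM in Ifit-only cells and 3.79 CPM in GTPase-only cells of LTS, and at 52.0 CPM in Ifit-only cells and 5.67 CPM in GTPase-only cells of control. Ddx58 and Irf7 lay on the Ifit side as well, with log2 ratios of Ifit-only over GTPase-only cells of 1.24 for Ddx58 and 0.76 for Irf7 in LTS and of 0.79 for Ddx58 and 0.89 for Irf7 in control. Psmb9 lay on the other side, at 26.5 CPM in Ifit-only cells and 144.9 CPM in GTPase-only cells of LTS, and at 28.7 CPM in Ifit-only cells and 113 CPM in GTPase-only cells of control. Tap1 had ratios of -1.66 in LTS and -1.48 in control, and Iigp1 ratios of -2.35 in LTS and -1.98 in control.

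By lists, antiviral effectors had medians of Ifit-only over GTPase-only cells of 0.48 in LTS, with 26 of 28 measured genes above 0, and 0.50 in control, with 28 of 33. MHC class I genes had medians of -0.55 in LTS, with 2 of 15 above 0, and -0.66 in control, with 0 of 15. Over all genes measured in this comparison the medians were 0.018 in LTS, with 52.4% of 6678 above 0, and 0.027 in control, with 53.6% of 6768. Interferon-induced GTPases outside the score had medians of -0.92 in LTS and -1.24 in control. Above 0 were 1 of 6 measured genes in LTS and 0 of 6 in control. A gene was measured here with at least 20 CPM in Ifit-only or in GTPase-only cells. Genes that reached it on a single side had to lie on that side, so the counts above 0 are partly set by this minimum. Such genes include Oasl1 and Ifit3b on the Ifit side and Tap2 on the GTPase side in both libraries, and Gbp4 on the GTPase side in control. The remaining lists differed in how far they followed the division. The list of ISG15 and ADP-ribosylation genes had medians of 0.23 in LTS (7 of 9 above 0) and 0.03 in control (4 of 8), and sensors -0.09 in LTS and 0.20 in control. Transcription factors had medians of -0.40 in LTS and -0.46 in control, and the chemokine list, Csf1 included, -0.48 in LTS and -0.47 in control. Genes with no interferon role named here also differed. Lum, a matrix proteoglycan, was at 62.1 CPM in Ifit-only cells and 204 CPM in GTPase-only cells of LTS, and at 59.5 CPM in Ifit-only cells and 169 CPM in GTPase-only cells of control. Mt2, a metal-binding metallothionein, was at 114 CPM in Ifit-only cells and 357 CPM in GTPase-only cells of LTS, and at 179 CPM in Ifit-only cells and 456 CPM in GTPase-only cells of control. The LTS values rest on 33 and 30 cells.

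Within interferon-response cells, LTS and control differed in few genes. Of 6646 measured genes 4 (0.0602%) were at least 2-fold higher in LTS and 16 (0.241%) at least 2-fold lower. Among other tumour-like cells the counts were 0 of 6393 genes (0%) higher and 13 (0.203%) lower. The 4 higher genes were Ttr, Rgs2, Igfbp3 and Ikzf2. Ttr, the marker gene of choroid plexus, stood at 29.4 CPM in LTS and at 4.82 CPM in control, and at 1257 CPM in LTS barcodes of 1 to 100 UMIs and 71.8 CPM in those of control. Whether free RNA set its difference was not tested. Pbld2, Dennd5b, Snhg9 and Mpv17l, the lowest, were lower to a like degree in other tumour-like cells. Pbld2 had 169 CPM in LTS interferon-response cells and 567.5 CPM in control ones (0.299-fold, 0.277 to 0.321), and 0.308-fold (0.301 to 0.315) in other tumour-like cells.

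The measured genes of the interferon lists below stayed within 2-fold between the libraries, as nearly all measured genes did. The 9 score genes had LTS over control ratios of -0.38 to 0.30 in interferon-response cells, with a median of -0.06. Both libraries were cut at the same limit of a score made of these 9 genes. Their like levels thus follow largely from the selection and do not show likeness between the libraries. Antiviral effectors had a median of -0.14 in interferon-response cells and -0.16 in other tumour-like cells. GTPases had a median of 0.41 over 6 measured genes in interferon-response cells, with 5 above 0, and the 1 gene measured in other tumour-like cells was at -0.27. MHC class I genes had a median of 0.17 in interferon-response cells, with 14 of 15 above 0, and -0.11 in other tumour-like cells, with 0 of 8 above 0. In each of these lists fewer genes were measured in other tumour-like cells, so the medians of the classes cover unlike sets of genes. Psmb9 was 1.61-fold higher in LTS than in control interferon-response cells (1.42 to 1.83), and 0.846-fold (0.755 to 0.947) in other tumour-like cells. Library, animals and treatment cannot be told apart in these values. The median of all genes was -0.043 in interferon-response cells and -0.029 in other tumour-like cells.

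Outside the interferon genes, Rgs2, a regulator of G protein signalling, had 56.9 CPM in LTS interferon-response cells and 23.5 CPM in control ones (2.43-fold, 2.01 to 2.93), and 1.24-fold (1.17 to 1.32) in other tumour-like cells. Igfbp3, which binds insulin-like growth factors, was 2.27-fold higher in LTS (1.91 to 2.71) and 1.30-fold in other tumour-like cells. With the top 5% of cells as the class, the log2 ratio of Rgs2 was 0.55 in place of 1.12 and that of Igfbp3 0.08 in place of 1.05. Postn, the matrix protein periostin, had 221 CPM in LTS interferon-response cells and 114 CPM in control ones (1.94-fold, 1.77 to 2.12), and 1.12-fold (1.08 to 1.15) in other tumour-like cells. Hmox1 was 0.437-fold (0.362 to 0.525) in interferon-response cells and 1.08-fold (1.05 to 1.11) in other tumour-like cells. When the limits on contaminating UMIs were read after thinning, the log2 ratio of Hmox1 was -0.06 in place of -1.07.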

How the data were processed

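Single-cell RNA-seq libraries from 2 groups, 1 library each, were used. The deposited values were UMI counts per gene and barcode, unfiltered and not normalized by the authors; per the file headers, Cell Ranger 4 produced them, and per the submitters' processing notes on mm10. The matrices listed 27998 genes and 6794880 barcodes.

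Cells were chosen by the limits and the score given above, with no doublet caller. Raw counts were summed over the cells of a class and library and scaled to CPM. Ratios are log2 of CPM with a pseudocount of 5, over genes with at least 20 CPM in either class, and called means 2-fold. Cell members and gene lists were chosen with earlier results of these data known. No test was run, since each group has 1 library. Shares have exact Clopper-Pearson intervals and ratios of sums exact conditional 95% intervals. These treat each UMI as independent and leave out the spread between cells and animals.

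Named genes were the 14 highest and 8 lowest by the smaller ratio of both libraries with at least 50 CPM (score, mitochondrial, ribosomal, haemoglobin, sex-linked and unnamed genes left out), the 6 highest and 6 lowest of LTS over control, and genes of the lists. Genes of the Ifit-only and GTPase-only cells, Il11, Areg, Ikzf2, Ttr and the genes called outside the lists were chosen after their values were seen. Cells were thinned to 10000 UMIs with a fixed seed. The ratio step was tested on simulated data. Values of 1 gene are not reported here. Tools were Python 3.11.15, numpy 2.4.6, scipy 1.17.1, pandas 2.3.3 and matplotlib 3.10.9.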

Additional observations from a re-analysis of the deposited data

Results flagged for a closer look

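Genes of mitosis stood on opposite sides in the libraries. Their median log2 ratio of interferon-response over other tumour-like cells was -0.1797 in LTS, with 6 of 25 genes above 0, and 0.1433 in control, with 20 of 25 above 0. Of all measured genes, 3609 of 6561 in LTS and 3987 of 6568 in control were above 0. Nusap1, a spindle protein, was at -0.58 in LTS and 0.08 in control, and Mki67, a marker of cycling cells, at 0.09 in LTS and 0.29 in control. Over the alternatives the LTS median ran from -0.21 to -0.029 and the control median from 0.025 to 0.16. The difference between the libraries was not tested, and no gene of the list passed 2-fold.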

How the results depend on the processing

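Genes at least 2-fold higher numbered 84 to 148 in LTS and 69 to 118 in control over the other alternatives, within 1.5 times the main counts, but 33 in LTS and 28 in control when 20 CPM were asked of the other tumour-like cells, since genes measured only in the interferon-response class then drop out. The lower counts were small and depended on the class. In LTS, 4 genes became 9 after thinning to 10000 UMIs, 2 with the top 20%, 39 without any immune or endothelial UMI and 2 with the cell limits read after thinning. In control, 2 became 1 with the top 20% and 29 without such UMIs. Genes higher in LTS than in control interferon-response cells were 4, and 7 after thinning, 1 with the top 20%, 96 without immune or endothelial UMIs, 2 without the 5% of cells with most UMIs, 7 without a CPM minimum and 1 with the limits read after thinning. Genes lower in LTS were 16, and 120 without immune or endothelial UMIs, where 18 LTS and 44 control cells remained. Gfod2 then stood at 0.053, against -1.12. The share of tumour-like cells was 4.90% in LTS and 5.06% in control with the top 5%. With the top 20% it was 18.8% in LTS and 20.5% in control. By construction only the share of the pooled cells was fixed. After thinning, the control shares past both groups and past the Ifit group only were 52.97% and 33.4%, against 60.6% and 27.8% at full depth. Of 89 list medians and genes past 2-fold, 1 turned direction and 48 of 1212 alternative values fell under 2-fold; without a CPM minimum the chemokine medians were 0.13 in LTS and 0.27 in control, and the control sensor median was 0.34. The causes were not tested, beyond the fewer cells and genes named. Reading the cell limits after thinning, leaving out the cell with most UMIs of a gene and asking 20 CPM of the other tumour-like cells were chosen after seeing the data. No paired analysis was possible because each group has 1 library, and none could be left out.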

Other observations

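Lists on the identity of the tumour cells differed little with the interferon score. Mesenchymal genes had medians of 0.03 in LTS and 0.02 in control over 16 measured genes, and glial genes -0.18 in LTS and -0.18 in control over 4. Genes of the states otherwise seen among these tumour cells had medians of -0.29 in both libraries, led downwards by Il11. Genes of cell death were at 0.19 in LTS and 0.11 in control, and glycolysis and hypoxia genes at 0.00 in LTS and 0.11 in control. Dcn, a matrix proteoglycan that the list of fibroblast markers shares with the matrix list, was at 657 CPM in interferon-response cells and 389 CPM in other tumour-like cells of LTS, and at 534 CPM in interferon-response cells and 383 CPM in other tumour-like cells of control.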
